A study of Homo sapiens with 4 samples.

Results

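The genes that carry out macroautophagy were examined in MKN28 cells, a human gastric adenocarcinoma line, from lines made to carry wild-type KIAA1324 (WT), a mutant of it, or luciferase as the control (Luc). The set held 40 genes chosen by name from the core autophagy machinery and its cargo receptors, out of 23362 entries in the table of gene expression. Of these, 39 were found under their own symbol, and ATG101 was found under its older symbol, C12orf44. Expression was given as FPKM, read fragments scaled to transcript length and library size, and 39 of the 40 genes reached 1 FPKM in a library or more, as did 11769 genes in all. ULK2 did not, at 0.33 in Luc, 0.11 in WT, 0.45 in 3NQ and 0.14 for the library labelled ΔTM.

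Each of 4 groups gave 1 library of poly(A) RNA. Every group carried a tetracycline-inducible (tet-on) viral construct, with luciferase in Luc, KIAA1324 in WT, KIAA1324 with asparagines of its N-glycosylation sites exchanged for glutamine in 3NQ, and KIAA1324 without its transmembrane domain in ΔTM. The KIAA1324 lines were made with a retroviral vector carrying an HA-tagged insert and were selected with G418 and puromycin. Whether each line was a clone or a pool, and the doxycycline treatment of the cells used for RNA, are not given in the sources used here. The comparisons asked how far the RNA of the autophagy machinery differed with KIAA1324, and whether it did so in 3NQ and the library labelled ΔTM. With 1 library per group no difference had a replicate check, no p-value was computed, and a single FPKM had no error estimate, since the depth of each library is unknown. In these bulk libraries, fewer cells expressing a gene and less of its RNA per cell cannot be told apart.

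KIAA1324 itself stood at 2.86 FPKM in Luc, 11185 in WT, 8197 in 3NQ and was listed at 0 in the library labelled ΔTM, a listed value that can be a failed estimate. It goes against what the label says, so the library is named by its label throughout. The epithelial markers EPCAM, CDH1, KRT8, KRT18, KRT19 and CLDN4 were at about 174 FPKM or more in the 4 libraries, the lowest value being that of CLDN4 in 3NQ, while PTPRC, COL1A2, VIM and DES were below 1. KRT8 ranged from 4510 FPKM in WT to 8501 in Luc. COL1A1 lay between 12.1 and 15.4 FPKM, and PECAM1 was looked for but not found. The number of genes with an FPKM of at least 1 ranged from 11297 to 11406 per library.

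Macroautophagy encloses cytoplasmic cargo in a double membrane, the autophagosome, and delivers it to the lysosome. A kinase complex around ULK1 starts the process, a lipid kinase complex around BECN1 and PIK3C3 marks the membrane with a phosphoinositide, lipid transfer and scrambling proteins let it grow, and a ubiquitin-like conjugation system attaches ATG8 proteins to it. Cargo receptors such as SQSTM1 (p62) bind ubiquitylated cargo on one side and ATG8 proteins on the other, and are themselves degraded with it. KIAA1324, also named ELAPOR1, has been linked to autophagosome and lysosome function.

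Promoter sequences were looked at for the genes with the largest differences and for motifs that are bound by regulators of autophagy and stress genes. The promoters, 250 bases before to 50 bases after a start site, came from RefSeq (GRCh38.p14), which held 44 promoters for 35 of the 40 genes. Both strands were searched. The stretches of 250 bases before the start are shown for SQSTM1 and WIPI1, which were chosen because they had the largest ratios of WT to Luc, with the GC box GGGCGG or its complement in capitals. The SQSTM1 stretch, chr5:179820655-179820904 on the plus strand, belongs to the third of its 3 start sites in the table, chosen after the counts were seen because it held the most GC boxes, and the WIPI1 stretch is chr17:68457497-68457746 on the minus strand.
SQSTM1: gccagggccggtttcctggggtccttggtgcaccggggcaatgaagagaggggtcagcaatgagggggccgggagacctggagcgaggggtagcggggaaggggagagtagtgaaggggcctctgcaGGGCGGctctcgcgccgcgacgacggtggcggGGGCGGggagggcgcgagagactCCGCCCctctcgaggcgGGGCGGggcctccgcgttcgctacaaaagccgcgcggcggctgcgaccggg
WIPI1: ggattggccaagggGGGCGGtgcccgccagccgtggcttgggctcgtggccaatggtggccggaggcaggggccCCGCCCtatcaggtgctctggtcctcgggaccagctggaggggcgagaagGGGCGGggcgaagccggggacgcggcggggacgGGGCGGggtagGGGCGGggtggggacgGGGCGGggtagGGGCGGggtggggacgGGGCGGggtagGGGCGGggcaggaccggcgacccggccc
The SQSTM1 stretch held 4 GC boxes, a number that 7.63% of 35116 promoters reached. The stretches before its other start sites held 2 and 3, reached by 24.3% and 13.9%. The WIPI1 stretch held 9, reached by 0.285%. It was 79.6% G or C, and several of its copies lie in a repeated run of letters. Among all promoters of the 40 genes, 29 of 44 (65.9%) held a GC box, against 45.0% of all promoters. Some genes have more than 1 of these promoters, and 25 of the 35 genes held a GC box. The promoters compared were not matched for their content of G and C.

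Other motifs were rarer. The E-box CACGTG was found in 2 promoters, of ATG14 and ATG3 (4.55%, against 7.26% of all promoters). Its longer form TCACGTGA, the core of the CLEAR element read by TFEB, was found only in ATG3 among the 44 promoters (2.27%, against 0.98%), just past the start site and overlapping an E-box match. The core of the antioxidant response element, TGACNNNGC, which is read by NRF2, was found in 3 promoters (6.82%, against 13.3%), those of ATG101, MAP1LC3B and CALCOCO2. The matches are shown with 10 bases on either side and the motif in capitals, on the gene's strand, to let the letters be compared. They lie at chr3:112561941-112561968 on the minus strand for ATG3, and on the plus strand at chr12:52069848-52069876 for ATG101, chr16:87392280-87392308 for MAP1LC3B and chr17:48830896-48830924 for CALCOCO2, where the match is on the opposite strand.
ATG3: gagtctagtgTCACGTGAggccccggtg
ATG101: tgtgcttctgTGACTACGCggatgttgtg
MAP1LC3B: gcgagtcaccTGACCAGGCtgcgggctga
CALCOCO2: cgctcctgggGCCCGGTCAcctgaacact
No match to these letters was found in the SQSTM1 or WIPI1 promoters other than the GC boxes. A match is a description of the letters and says nothing on binding.

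Differences were expressed as the log2 ratio of FPKM + 1, and genes past a 1.5-fold ratio were called, higher or lower. Against Luc, 5 of the 39 tested genes were called higher in WT (SQSTM1, WIPI1, ATG10, OPTN and ATG101) and 0 lower. Over all 11769 genes tested, 3.36% were called higher and 3.34% lower in the same comparison. In 3NQ, 1 gene of the set was called higher (WIPI1) and 0 lower, where 1.77% of all genes were called higher and 2.57% lower. Against the same Luc library, the one labelled ΔTM had WIPI1 called higher and PIK3C3 lower, where 1.54% and 1.57% of all genes were called. These 3 comparisons share the Luc library. Against 3NQ, which does not use Luc, 4 genes were called higher in WT (SQSTM1, ULK1, WIPI1 and ATG10) and 0 lower, beside 2.89% and 1.58% of all genes. The comparisons of WT with Luc and with 3NQ share the WT library, so they are not independent. No test of these counts was made.

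Most of the smaller ratios were also above 0 in WT. The ratio of WT to Luc was above 0 for 31 of the 39 genes and below 0 for 8, with a median of 0.22 (log2), where 49.1% of all genes were above 0 and their median was −0.0049. Without the 5 called genes, 26 of 34 were above 0 and the median was 0.17. The median against Luc was −0.016 in 3NQ, beside −0.038 over all genes. It turned to 0.027 after rescaling by the median of ratios, beside 0.0027 over all genes, and to 0.012 by the upper quartile, beside −0.011. For the library labelled ΔTM it was −0.10, beside −0.060 over all genes. Under these rescalings it came to −0.041, beside 0.0011 over all genes, and to −0.048, beside −0.0057, so it stayed below the median of all genes. Between WT and 3NQ, 37 of 39 genes were higher in WT (54.8% of all genes), with a median of 0.22 against 0.025 over all genes, and the exceptions were ATG4C and ATG7. Some of the 37 were nearly level, with ratios of 0.0021 for ATG2B, 0.013 for ATG4D, 0.014 for VMP1 and 0.018 for PIK3R4. The median was 0.19 under both rescalings, beside −0.0031 (median of ratios) and 0 (upper quartile) over all genes, and the count of 37 was not recomputed.

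The order of the 4 libraries was also counted, which needs no threshold. WT held the highest FPKM of the 4 libraries for 30 of 39 genes, or 76.9%, against 33.6% of all genes tested. This count rests on the scaling of the libraries, and was 27 after rescaling by the median of ratios and 26 by the upper quartile. The share over all genes was not recomputed under these rescalings. It held the lowest for 1 gene, ATG4C, against 26.7% of all genes. Leaving out the library labelled ΔTM, WT was above both Luc and 3NQ for 30 genes (37.2% of all genes) and below both for 1 (33.2%). The order WT above 3NQ above the library labelled ΔTM was seen for 25 of 39 genes, or 64.1%, and for 27.4% of all genes. This order and the counts without the library labelled ΔTM also rest on the scaling, and were not recomputed under the rescalings. All these counts use the same WT library.

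**Figure D1:**
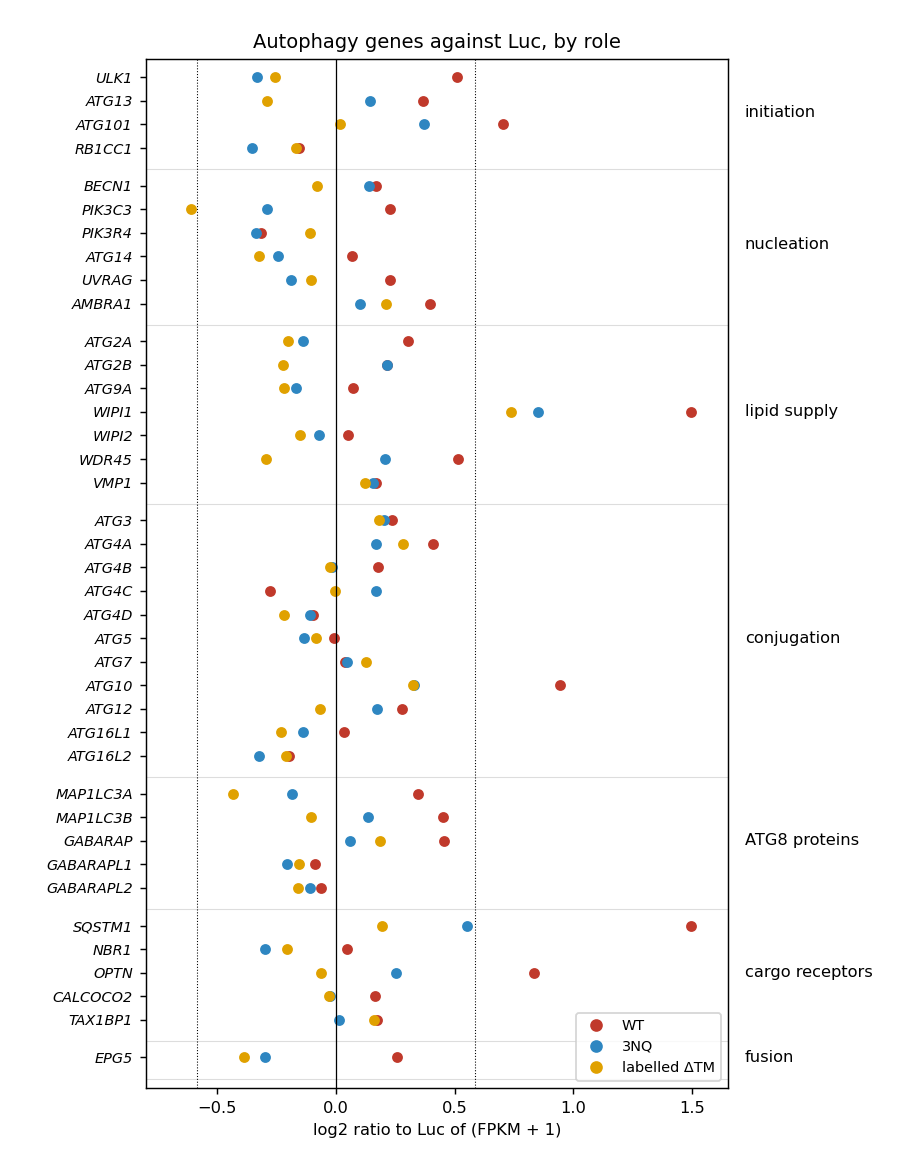
Log2 ratio to Luc of FPKM + 1 for the 39 tested autophagy genes, in rows grouped by role, with 1 point for each of WT, 3NQ and the library labelled ΔTM and dotted lines at 1.5-fold. In WT 5 points lie right of the upper line, SQSTM1 and WIPI1 the farthest at 1.49, and the WT point is right of 0 for 31 genes.

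**Figure D2:**
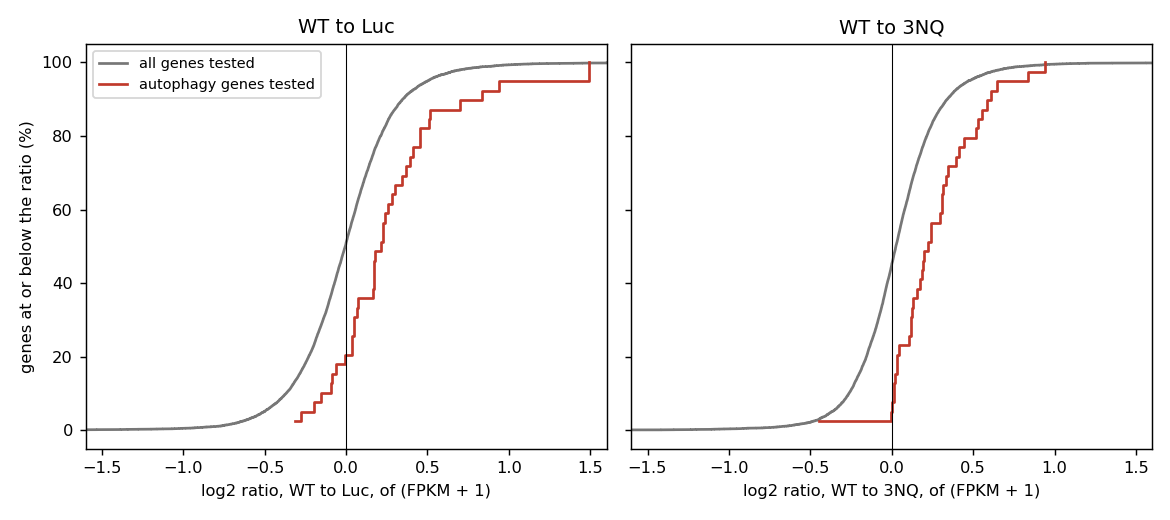
Share of genes (%) at or below each log2 ratio of FPKM + 1, for WT to Luc on the left and WT to 3NQ on the right, with the 39 autophagy genes in red and all 11769 tested genes in grey. The red curve lies right of the grey one over most of its range, with medians of 0.22 against −0.0049 on the left and 0.22 against 0.025 on the right.

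The roles had different median ratios in WT. The median ratio to Luc was 0.44 over the 4 tested initiation genes, 0.20 over the 6 nucleation genes, 0.22 over the 7 genes of lipid supply, 0.038 over the 11 conjugation genes, 0.34 over the 5 ATG8 genes and 0.17 over the 5 cargo receptors. The initiation median was thus the highest and the conjugation median the lowest, and the cargo receptors held the gene with the highest single ratio. Above 0 were 3 of 4 initiation genes, 7 of 11 conjugation genes and 5 of 5 cargo receptors. Against 3NQ the medians were 0.28 for initiation, 0.30 for nucleation, 0.24 for lipid supply, 0.13 for conjugation, 0.31 for ATG8 genes and 0.35 for cargo receptors. In that comparison the receptors, the ATG8 genes and nucleation thus came above initiation, and conjugation was again the lowest. The conjugation median was 0.11 when an FPKM of 5 was asked for, and 0.10 against the average of 3NQ and the library labelled ΔTM. With so few genes a role and 1 library a group, the order of the roles has no error estimate.

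Cargo receptors held the largest difference in level. SQSTM1, which gathers ubiquitylated proteins into condensates and also binds KEAP1, stood at 175 FPKM in Luc, 495 in WT, 257 in 3NQ and 199.97 for the library labelled ΔTM. WT was thus the highest, and 3NQ and the library labelled ΔTM lay between Luc and WT. The log2 ratio to Luc was 1.49 in WT (2.82-fold, rank 21 of 11769 tested genes), 0.55 in 3NQ, just under the threshold of 0.585, and 0.19 for the library labelled ΔTM. Against 3NQ the ratio of WT was 0.94 (1.92-fold). SQSTM1 lies at chr5:179233388-179265078 (GRCh37, plus strand), where it overlaps 2 genes of the minus strand. C5orf45 stood at 46.2 FPKM in Luc, 111 in WT, 66.5 in 3NQ and 49.0 for the library labelled ΔTM, in that same order, while MGAT4B stood at 84.0, 85.9, 69.4 and 77.5. The library kit is not stated to keep strand, so reads in the overlaps cannot be told apart.

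OPTN, a receptor for damaged mitochondria and bacteria, stood at 25.5 FPKM in Luc, 46.3 in WT, 30.6 in 3NQ and 24.4 for the library labelled ΔTM. WT was again the highest, and Luc and the library labelled ΔTM were the lowest. The log2 ratio to Luc was 0.84 in WT, 0.25 in 3NQ and −0.06 for the library labelled ΔTM, and WT exceeded 3NQ by 0.58, just under the threshold. The overlapping gene CCDC3 was near 0, at most 0.031 FPKM.

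The other 3 receptors differed less. TAX1BP1, which binds ubiquitin and cooperates with NBR1, stood at 131 FPKM in Luc, 148 in WT, 133 in 3NQ and 147 for the library labelled ΔTM. CALCOCO2 (NDP52), a receptor for bacteria and mitochondria, stood at 69.7, 78.2, 68.6 and 68.3 FPKM in the same order. NBR1, which shares its domain plan with SQSTM1, stood at 38.6, 39.99, 31.2 and 33.4. All 3 had their highest value in WT, with log2 ratios to Luc of 0.17, 0.16 and 0.05. For TAX1BP1 the library labelled ΔTM was nearly level with WT, at 147.1 against 148.0 FPKM, so their order depends on the scaling of the libraries. Summed over the 5 receptors, the level was 440.0 FPKM in Luc, 807 in WT, 520.0 in 3NQ and 473 for the library labelled ΔTM. Without SQSTM1 the sums were 265, 312, 263 and 273, and SQSTM1 took 39.8% of the sum in Luc, 61.3% in WT, 49.4% in 3NQ and 42.3% for the library labelled ΔTM.

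Of the 5 ATG8 genes, which encode the small ubiquitin-like proteins that receptors bind, 0 were called in the 4 comparisons. GABARAPL1 was the most abundant, at 176 FPKM in Luc, 166 in WT, 153 in 3NQ and 158 for the library labelled ΔTM, with Luc the highest. GABARAPL2 followed that order of Luc and WT, at 92.4, 88.5, 85.7 and 82.5 FPKM. GABARAP went the other way, at 88.1 FPKM in Luc, 121 in WT, 92.0 in 3NQ and 100.4 for the library labelled ΔTM, with a ratio of WT to Luc of 0.46 (log2).

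Of the LC3 genes, MAP1LC3B, the usual marker of autophagosomes, stood at 33.9 FPKM in Luc, 46.7 in WT, 37.4 in 3NQ and 31.5 for the library labelled ΔTM, and MAP1LC3A at 7.24, 9.47, 6.26 and 5.10. Both were highest in WT, by 0.45 and 0.34 (log2) over Luc, and lowest in the library labelled ΔTM. MAP1LC3B2, a near-identical copy of MAP1LC3B, stood at 6.08, 8.47, 8.13 and 2.81 FPKM, and how reads were split between them is uncertain. The summed level of the 5 ATG8 genes was 398 FPKM in Luc, 432 in WT, 374 in 3NQ and 378 for the library labelled ΔTM. GABARAPL1 took 44.3%, 38.4%, 40.8% and 41.9% of that sum.

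**Figure D3:**
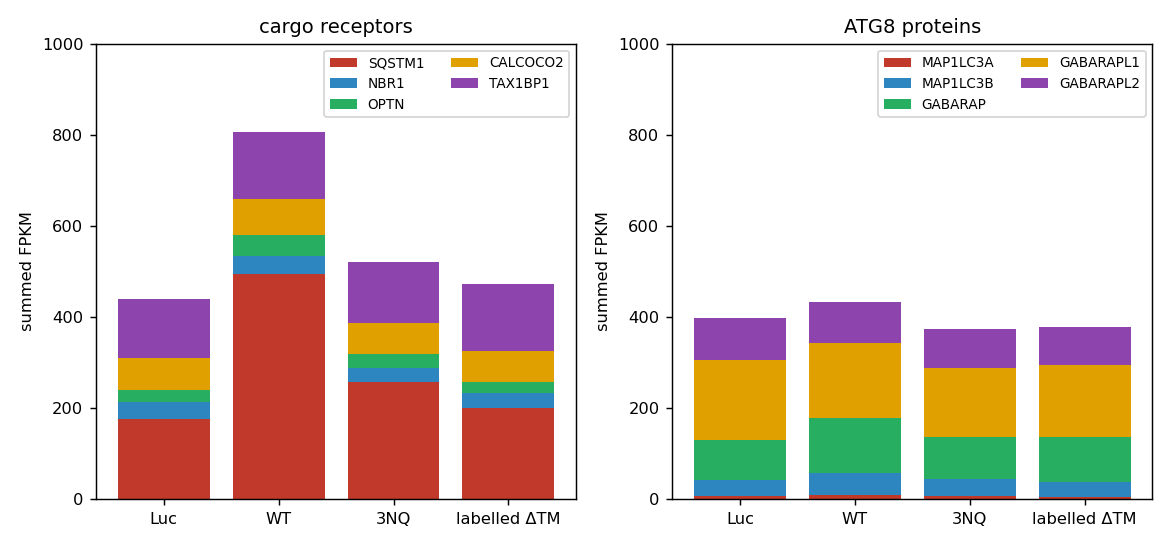
Summed FPKM of the 5 cargo receptors (left) and the 5 ATG8 genes (right) in each library, with the share of each gene as a stacked segment and 1 library per bar. The receptor sum is highest in WT, at 807 FPKM, where SQSTM1 takes 61.3% of it, and the ATG8 sums lie between 374 and 432.

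Initiation genes were led by ATG101 and ULK1. ATG101, which stabilises ATG13 in the ULK complex, stood at 41.6 FPKM in Luc, 68.3 in WT, 54.1 in 3NQ and 42.1 for the library labelled ΔTM. Its log2 ratio to Luc was 0.70 in WT, 0.37 in 3NQ and 0.02 for the library labelled ΔTM, an order of WT, 3NQ and then both others. It overlaps RP11-1100L3.7 on the minus strand, which stood at 17.7, 27.4, 22.3 and 18.7 FPKM, the same order. ULK1, the kinase of the complex, stood at 27.4 FPKM in Luc, 39.4 in WT, 21.6 in 3NQ and 22.8 for the library labelled ΔTM. WT was above Luc by 0.51 (log2) and the ratios to Luc were −0.33 in 3NQ and −0.26 for the library labelled ΔTM, so the ratio of WT to 3NQ reached 0.84 and was called.

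ATG13, the adaptor that carries ULK1, stood at 45.1 FPKM in Luc, 58.5 in WT, 50.01 in 3NQ and 36.8 for the library labelled ΔTM, with a ratio of WT to Luc of 0.37. RB1CC1 (FIP200), the scaffold of the complex, stood at 25.7, 23.0, 19.9 and 22.8 FPKM, and it was highest in Luc. ATG101, ULK1 and ATG13 were thus highest in WT, and RB1CC1 was not.

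Nucleation genes held no call in WT. BECN1, the scaffold of the lipid kinase complex, stood at 47.8 FPKM in Luc, 53.9 in WT, 52.8 in 3NQ and 45.2 for the library labelled ΔTM. PIK3C3 (VPS34), its kinase, stood at 12.3 FPKM in Luc, 14.6 in WT, 9.92 in 3NQ and 7.76 for the library labelled ΔTM. WT was the highest and the library labelled ΔTM the lowest, with a ratio to Luc of −0.61 that passed the threshold only narrowly and was −0.55 under both rescalings, no longer a call. PIK3R4, the partner subunit of PIK3C3, was highest in Luc, at 15.4 FPKM against 12.2 in WT, 11.99 in 3NQ and 14.2 for the library labelled ΔTM. AMBRA1, a regulator that binds BECN1, had the highest ratio of WT to Luc of the 6, at 0.40, and ATG14 and UVRAG, which define the early and the endosomal form of the complex, had 0.07 and 0.23.

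Lipid supply and PI3P effectors were all highest in WT, 7 of 7 genes, and held 1 call. For ATG2B and VMP1, WT exceeded 3NQ by only 0.0021 and 0.014 (log2), so their order depends on the scaling of the libraries. WIPI1, which reads the phosphoinositide made by PIK3C3, stood at 5.26 FPKM in Luc, 16.6 in WT, 10.3 in 3NQ and 9.43 for the library labelled ΔTM. Luc was the lowest library, and the log2 ratio to it was 1.49 in WT (2.82-fold, rank 22), 0.85 in 3NQ and 0.74 for the library labelled ΔTM. It was the only gene of the set called against Luc in all 3 comparisons, which share that Luc library, and WT exceeded 3NQ by 0.64. With a pseudocount of 5 the last 3 of these ratios were 0.58, 0.49 and 0.50 and were not called, while that of WT to Luc was. Of the genes it overlaps on chr17:66417089-66453654 (GRCh37, minus strand), PRKAR1A stood at 101, 100.3, 87.9 and 91.7 FPKM and ARSG at no more than 0.19.

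Other members of this role differed less in WT. WDR45 (WIPI4), which binds the lipid transfer protein ATG2A, stood at 25.4 FPKM in Luc, 36.7 in WT, 29.4 in 3NQ and 20.5 for the library labelled ΔTM, with a ratio of WT to Luc of 0.52. WIPI2, which recruits ATG16L1, stood at 49.9, 51.7, 47.5 and 44.8 FPKM, a ratio of 0.05. The lipid transfer proteins ATG2A and ATG2B had ratios of WT to Luc of 0.30 and 0.22, and the scramblases ATG9A and VMP1 of 0.07 and 0.17. VMP1 was the most abundant of the 7, at 86.2 to 97.2 FPKM over the 4 libraries, and ATG2B the least, at 2.09 to 3.18.

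Conjugation genes had the lowest median ratio of the roles, and ATG10 was the 1 gene called among them. ATG10, the E2-like enzyme that joins ATG12 to ATG5, stood at 4.78 FPKM in Luc, 10.1 in WT, 6.27 in 3NQ and 6.25 for the library labelled ΔTM. Luc was the lowest and WT the highest, with a log2 ratio of 0.94 (1.92-fold, rank 100), and WT exceeded 3NQ by 0.61, a call lost at 0.58 after rescaling by the median of ratios and at 0.42 with a pseudocount of 5. ATG10 overlaps RPS23, a ribosomal protein gene of the minus strand at 1297 to 1509 FPKM, whose ratio of WT to Luc was 0.06. Its partners differed less, with a ratio of WT to Luc of 0.28 for ATG12, −0.01 for ATG5, 0.03 for ATG16L1 and 0.04 for the E1-like ATG7. ATG3, the E2-like enzyme for ATG8 proteins, stood at 40.9 FPKM in Luc, 48.3 in WT, 47.15 in 3NQ and 46.4 for the library labelled ΔTM, lowest in Luc.

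The ATG4 proteases, which process ATG8 proteins and release them from lipid, differed in which library was highest. ATG4A stood at 10.3 FPKM in Luc, 14.0 in WT, 11.7 in 3NQ and 12.7 for the library labelled ΔTM, and ATG4B, the most abundant, at 68.9, 78.1, 68.2 and 67.9. ATG4C stood at 7.41 FPKM in Luc, 5.93 in WT, 8.45 in 3NQ and 7.40 for the library labelled ΔTM. It was the only tested gene of the set with its lowest value in WT, with a ratio of −0.28 to Luc and −0.45 to 3NQ. ATG4D stood at 18.7, 17.5, 17.3 and 16.0 FPKM, highest in Luc. ATG16L2, a relative of ATG16L1, was the least abundant tested gene of the set, at 1.14 to 1.68 FPKM, and was highest in Luc. EPG5, a tether for fusion with the lysosome, stood at 6.05 FPKM in Luc, 7.42 in WT, 4.73 in 3NQ and 4.39 for the library labelled ΔTM, with a ratio of WT to Luc of 0.26 and to 3NQ of 0.56.

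**Figure D4:**
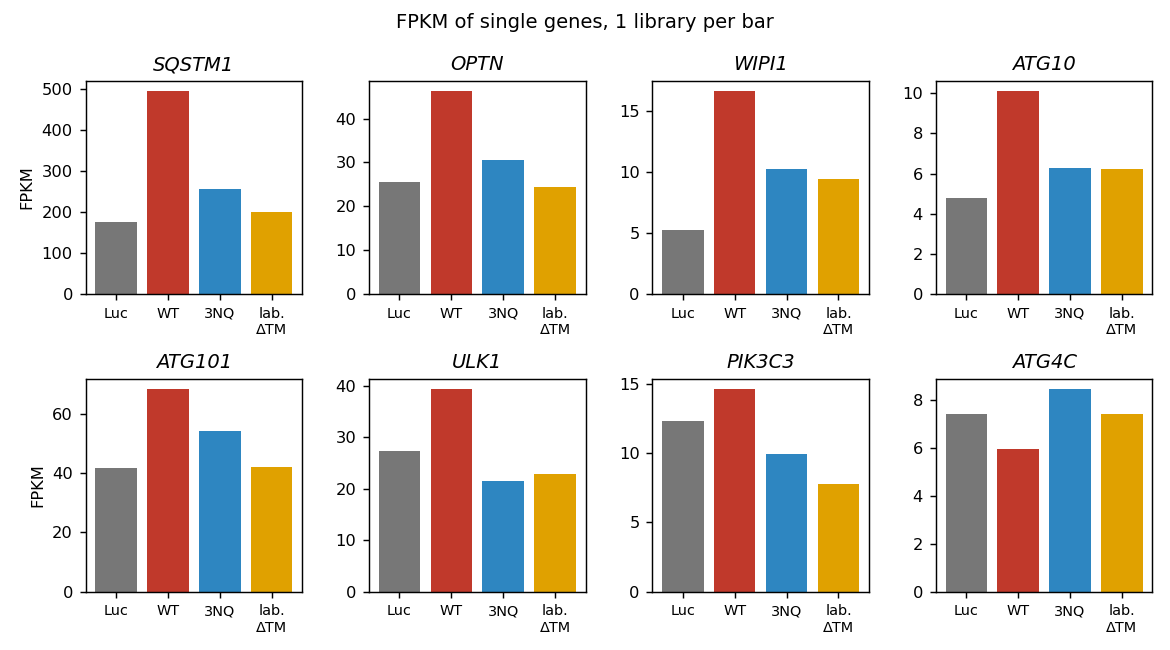
FPKM of 8 autophagy genes, with 1 library per bar and a separate axis for each gene starting at 0. SQSTM1, OPTN, WIPI1, ATG10, ATG101, ULK1 and PIK3C3 are highest in WT, ULK1 and PIK3C3 are lower in 3NQ than in Luc, as they are for the library labelled ΔTM, and ATG4C is lowest in WT.

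Of the 39 tested genes of the set, 22 overlap another gene of the table. Other genes of the pathway were counted in 4 lists, to be read beside the shares of all genes called. Against Luc these were 3.36% higher and 3.34% lower in WT, and 1.77% and 2.57% in 3NQ. They were 1.54% and 1.57% for the library labelled ΔTM, and 2.89% and 1.58% in WT against 3NQ. Upstream kinases and their regulators (MTOR, AMPK and TSC subunits) held 0 calls in either direction in any of the 4 comparisons among 13 tested of 16 genes, with a median ratio of WT to Luc of 0.015. MTOR, the kinase that holds ULK1 inactive in fed cells, stood at 17.4 FPKM in Luc, 19.0 in WT, 18.3 in 3NQ and 16.3 for the library labelled ΔTM.

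Of 8 transcription factors of autophagy genes, all tested, DDIT3 was called higher and FOXO1 lower against Luc in each of the 3 other libraries. Of all genes, 3.36% in WT, 1.77% in 3NQ and 1.54% for the library labelled ΔTM were called higher. The shares called lower were 3.34%, 2.57% and 1.57%. FOXO1 stood at 359 FPKM in Luc, 1.41 in WT, 1.34 in 3NQ and 1.28 for the library labelled ΔTM, so that Luc alone was high, and DDIT3 (CHOP), a stress factor, at 10.04, 21.1, 20.1 and 19.9 FPKM. All 3 comparisons share the Luc library, in which FOXO1 stands apart, and the part of FOXO1 in the autophagy genes was not tested. The comparison of WT with 3NQ does not use Luc, and neither gene was called there, with ratios of 0.04 and 0.06. TFEB, the factor that reads the CLEAR element, stood at 5.73, 6.01, 6.46 and 4.68 FPKM, and its relative TFE3 at 28.3, 33.6, 28.1 and 26.6.

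Of 17 receptors for organelles and their regulators, 15 were tested and 2 were called higher in WT than in Luc, with a median ratio of 0.0040. Over all genes, 3.36% were called higher in that comparison and the median was −0.0049. WDFY3 (ALFY), a scaffold that brings SQSTM1 aggregates to the autophagy machinery, stood at 11.1 FPKM in Luc, 20.5 in WT, 9.37 in 3NQ and 7.99 for the library labelled ΔTM, with ratios of WT of 0.83 to Luc and 1.05 to 3NQ. CCPG1, a receptor for the endoplasmic reticulum, stood at 20.7, 32.0, 31.9 and 27.1 FPKM and was called in both WT (0.61) and 3NQ (0.60). PINK1, the kinase of mitophagy, was called only against 3NQ, at 11.97 FPKM in Luc, 15.7 in WT, 9.62 in 3NQ and 9.86 for the library labelled ΔTM.

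Maturation genes, which tether and fuse autophagosomes with lysosomes or act beside the lipid kinase, held 16 of 18 ratios of WT to Luc above 0, with a median of 0.24, and 1 call, TECPR1 (4.12 FPKM in Luc, 6.98 in WT, 6.05 in 3NQ and 4.32 for the library labelled ΔTM). Over all genes, 49.1% were above 0, the median was −0.0049 and 3.36% were called higher. ZFYVE1 (DFCP1), a marker of the sites where the membrane forms, was called higher in WT than in 3NQ, at 6.46, 9.69, 4.99 and 5.06 FPKM. PLEKHM1, a lysosomal tether, was called lower in the library labelled ΔTM than in Luc, at 22.5, 23.5, 19.8 and 14.4 FPKM. RAB7A, the small GTPase of late endosomes, was not called, at 366, 458, 343 and 403 FPKM.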

How the data were processed

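Poly(A) libraries (TruSeq kit, HiSeq2500) were read by the authors. Per the labels and methods, the authors filtered reads on undetermined and low-quality bases, mapped them to GRCh37 (Ensembl release 72) with TopHat, and made the deposited FPKM values with Cufflinks 2.1.1, with non-coding genes masked and both its multi-read and fragment-bias corrections switched on. The FPKM were not counts, so no count test was made and depth is unknown.

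Here, log2 ratios of FPKM + 1 were taken (Python 3.11.15 with pandas 2.3.3 and numpy 2.4.6) for the 11769 genes that reached 1 FPKM in a library or more, and called at 1.5-fold. The calling step was run on simulated data with low FPKM raised and with changes well past the threshold, so it says nothing on ratios near 1.5-fold. Figures were drawn with matplotlib 3.10.9. A repeated symbol took the entry with the highest mean FPKM. All 40 members were to be described, with all 4 values for called genes, ATG8 genes and receptors. The planned ATG8 protein sequences are not shown. Members and lists were chosen with earlier results of these data known, and the alternatives are given in the closing section.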

Additional observations from a re-analysis of the deposited data

Results flagged for a closer look

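In 8 cases WT and either 3NQ or the library labelled ΔTM lay on opposite sides of Luc and at least 1.5-fold apart. The share of all genes with such a pattern was not counted. For ULK1, WT exceeded 3NQ by 0.84 (log2) and the library labelled ΔTM by 0.76. WT exceeded the library labelled ΔTM by 0.66 for ATG13, 0.84 for PIK3C3, 0.81 for WDR45, 0.78 for MAP1LC3A, 0.90 for OPTN and 0.64 for EPG5. With 1 library per group, these differences were not tested, and 7 of the 8 rest on the library labelled ΔTM, in which KIAA1324 was listed at 0. Only 37.0% of all genes tested were above Luc in that library, with a median of −0.060.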

How the results depend on the processing

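The 5 genes called in WT against Luc kept their calls with pseudocounts of 0.1 and 5, with either filter and under both rescalings (median of ratios and upper quartile), which left the median of all genes between −0.0112 and 0.00528 in the 4 comparisons. At 2-fold, 2 genes were called higher in WT than in Luc and 0 in every other comparison and direction that had held a call. With a pseudocount of 0.1, 7 genes were called higher in WT than in 3NQ, and with 5, 2 were, while 3NQ and the library labelled ΔTM held 0 calls against Luc. Under the median of ratios, 2 genes were called higher in 3NQ and the 3NQ median turned to 0.027, and under the upper quartile to 0.012. Both rescalings left 0 genes called lower in the library labelled ΔTM and 2 genes with WT lowest, as did no filter for the latter. With 3NQ and the library labelled ΔTM averaged as the control, 8 genes were called higher in WT and the receptor median was 0.30. With 3NQ as the control it was 0.35 and the initiation median 0.28. The share of all genes called was not recomputed for the other thresholds, pseudocounts, filters, rescalings or the averaged control. The counts of called genes under these settings therefore have no share beside them. The causes were not tested, beyond what each setting does by construction. The other 115 recomputed counts and medians kept their direction, counts within 1.5 times and medians within 0.1 (log2). Small medians moved by more than 1.5 times within that limit, such as that of conjugation in WT, from 0.038 to 0.11 with an FPKM of at least 5 and 0.10 with the averaged control, and that of the library labelled ΔTM, from −0.10 to −0.041 and −0.048 under the rescalings. Each single called ratio was looked at again under several settings. Over all these pairs of ratio and setting, 73 stayed called and 21 did not, and 0 changed sign. The 2-fold setting leaves a ratio as it is, so no sign could change there. Leaving out the library labelled ΔTM, dropping ATG101 and the search for GC boxes were chosen after seeing the data. No paired analysis was possible because each group held 1 library, so no library could be left out of a group either. Depth was unknown, and a listed 0 can be a failed estimate.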
